A study of Mus musculus with 89 samples.

Results

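Ear1, Ear2, Ear6, Ear10 and Ear11 are members of the eosinophil-associated ribonuclease family of the mouse, and their transcripts were followed in lung tissue across 26 groups that differed in nanomaterial, dose and allergen challenge. They were 5 of the 22911 genes measured, read by 6 of the 56605 non-control probes of the array. The probes were found by gene symbol, and the genes were chosen by values already known from these arrays. Which values these were is not recorded, and they were taken to be the low levels of Ear2, Ear1 and Ear10 in PBS-challenged lungs after CuO or CuO PEG at 40 μg/mouse. On that assumption, levels in PBS-challenged mice against their controls are descriptions without a test. So is every other contrast that sets PBS-challenged mice at 40 μg/mouse against another group. Tests are given for OVA-challenged mice, for the 2 lower doses, and for the materials in those samples. These tests are not independent of the choice, because all samples were fitted together. OVA-challenged samples on CuO at 40 μg/mouse shared no array with OVA controls. With array as a term, arrays holding PBS-challenged mice at 40 μg/mouse are among those that link these groups. How far the values of those mice moved the tested results was not examined.

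The mice were female BALB/c, 6 to 8 weeks old, and all of them, controls included, had been sensitized with OVA/Alum, that is, ovalbumin given with an aluminium adjuvant. They then received PBS or OVA by oropharyngeal aspiration on 4 consecutive days, alone or with CuO PEG, CuO NH3, CuO COOH or CuO at 40, 10 or 2.5 μg/mouse, and lungs were taken 24 h after the last administration. CuO is the uncoated core copper oxide nanomaterial, and the other materials carry carboxyl, ammonium or polyethylene glycol groups on its surface. There were 7 samples of PBS controls and 8 of OVA controls. The PBS-challenged groups on CuO NH3 and CuO PEG at 10 μg/mouse had 4 each, and each other group had 3. By the methods, every sample was an independent pool of 2 RNA samples. The methods also give 8 mice per group, too few for all control pools to hold RNA of different mice. How the further control pools arose is not stated. The treatment text of the labels writes the doses in milligrams, whereas the description of each sample and the methods give micrograms.

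Eosinophil-associated ribonucleases belong to the RNase A superfamily, secreted enzymes that cleave RNA. The mouse family arose by repeated gene duplication and corresponds to the human eosinophil-derived neurotoxin and eosinophil cationic protein, which are stored in eosinophil granules. In mouse lung, Ear1, Ear2 and Ear10 are also among the transcripts by which resident alveolar macrophages are recognised, and Ear11 is known to be induced in type 2 inflammation and to attract macrophages. By the methods, the lungs were lavaged before part of the left lobe was taken for RNA, so cells washed out of the airways were not measured. In RNA of such tissue, fewer cells of a type and less of a transcript per cell cannot be told apart.

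Each sample was read in the Cy3 or the Cy5 channel of one of 46 arrays on 6 slides. Slides 1 to 3 carried CuO and CuO COOH, slides 4 to 6 carried CuO NH3 and CuO PEG, and controls of both challenges lay on both sets, so that CuO NH3 and CuO PEG were never on a slide with CuO. Median foreground intensity ran from 55 to 121 in Cy3 and from 67 to 180 in Cy5 samples. The correlation of a sample with its nearest other sample was at least 0.990 over all genes. All 10 lung markers that were looked up, among them the surfactant protein gene Sftpc and the endothelial gene Cldn5, were well above background in 89 of 89 samples.

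The 5 genes lie in 2 clusters on mouse chromosome 14 (RefSeq, GRCm38.p6). Ear1 (43818765 to 43819639), Ear10 (43922898 to 43923596) and Ear2 (44102654 to 44103531) lie within 285 kb. Ear11 (51255261 to 51256112), which RefSeq now calls Rnase2a, and Ear6 (51853768 to 51854643) lie in the second cluster. That cluster begins with a further family gene, Rnase2b, 7.06 Mb beyond the end of Ear2. Each of the 6 probes pointed to a single member, so no probe was shared between paralogues by its annotation. Probe sequences were not used here, and hybridisation of one member's transcript to another member's probe could not be examined. Spots of all 6 probes were neither flagged nor saturated in any of the 89 samples, and all were well above background in 89 samples except one of the Ear6 probes, which was so in 86.

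The promoters are shown because the group means of Ear1, Ear2, Ear10 and Ear11 ran closely together within each challenge while those of Ear6 did so less. Each run holds 300 bases of the RefSeq sequence, from 250 bases before the annotated transcript start to 50 bases after it, read in the direction of the gene. Capitals mark 2 kinds of match, an 8-base match to the C/EBP motif TTGCNNAA and the 21-base run TTATCCCTGATTTCCAGGACA, the longest that all 5 members share.
Ear1, chr14:43819590-43819889, minus strand: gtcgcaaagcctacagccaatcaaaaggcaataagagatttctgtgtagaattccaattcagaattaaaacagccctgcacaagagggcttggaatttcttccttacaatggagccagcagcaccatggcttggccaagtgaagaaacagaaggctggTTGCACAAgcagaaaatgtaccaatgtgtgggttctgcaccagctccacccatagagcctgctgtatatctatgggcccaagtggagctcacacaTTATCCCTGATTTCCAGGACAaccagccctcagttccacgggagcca
Ear10, chr14:43923547-43923846, minus strand: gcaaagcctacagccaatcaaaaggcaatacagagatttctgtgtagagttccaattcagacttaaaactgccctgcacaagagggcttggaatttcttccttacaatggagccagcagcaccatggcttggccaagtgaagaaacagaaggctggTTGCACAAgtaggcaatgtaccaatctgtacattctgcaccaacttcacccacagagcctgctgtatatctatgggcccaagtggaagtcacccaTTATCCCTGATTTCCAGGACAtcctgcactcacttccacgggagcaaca
Ear11, chr14:51256063-51256362, minus strand: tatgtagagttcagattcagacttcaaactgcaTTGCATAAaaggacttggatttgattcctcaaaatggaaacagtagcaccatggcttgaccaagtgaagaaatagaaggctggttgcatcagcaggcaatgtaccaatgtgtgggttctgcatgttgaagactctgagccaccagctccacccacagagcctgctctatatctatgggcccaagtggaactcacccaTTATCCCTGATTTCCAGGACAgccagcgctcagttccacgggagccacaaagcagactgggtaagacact
Ear6, chr14:51853518-51853817, plus strand: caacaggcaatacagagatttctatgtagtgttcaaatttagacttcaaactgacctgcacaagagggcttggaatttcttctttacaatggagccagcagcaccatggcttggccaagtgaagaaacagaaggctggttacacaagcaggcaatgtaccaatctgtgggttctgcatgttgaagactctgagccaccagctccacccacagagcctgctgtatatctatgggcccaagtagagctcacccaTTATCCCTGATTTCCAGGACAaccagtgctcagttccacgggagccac

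The Ear2 promoter (chr14:44102404-44102703, plus strand) was identical to that of Ear1 at 97.0% of aligned bases and to that of Ear10 at 89.5%, and the Ear1 and Ear10 promoters were identical at 91.4%. Ear6 was 79.9 to 81.5% identical to these 3 promoters, and Ear11 was 65.5 to 67.9% identical to them and 77.6% identical to Ear6. The promoters of Ear1, Ear2 and Ear10 held the C/EBP motif as TTGCACAA, starting at positions -92, -90 and -94 from the transcript start, and Ear11 held it as TTGCATAA at position -217, whereas that of Ear6 held no match. Matches on either strand were found in 10.8% of 32851 promoters of the same length. The PU.1 motif GAGGAA was found in the Ear11 promoter alone among the 5, against 28.3% of all promoters. No member held the TATA box TATAAA, which 13.6% of all promoters held. The GATA motif AGATAA, found in 11.2% of promoters, was likewise without a match in the 5 windows. The same was true of the STAT motif TTCNNNGAA (8.30%), of its form with a wider gap (6.95%) and of the AP-1 motif TGANTCA (7.81%). The 21-base run also occurred in the promoters of Ear14 and Rnase2b, and in no other promoter searched.

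**Figure D1:**
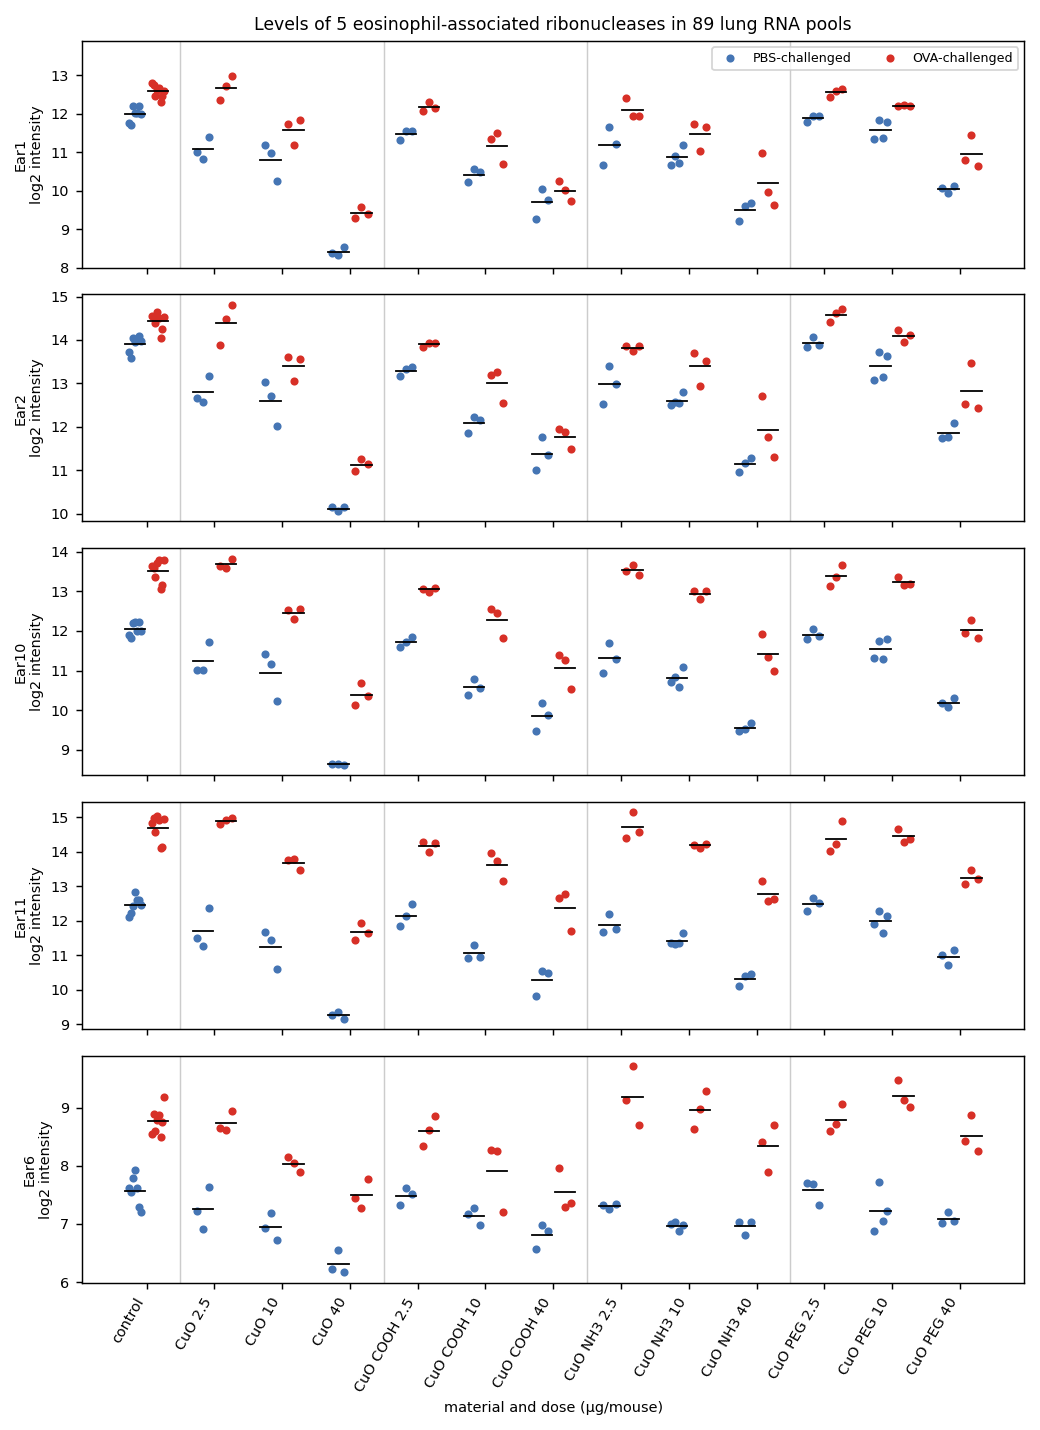
Levels of the 5 genes in each of the 89 samples, as log2 intensity after removal of slide, array position and dye (vertical axes, one panel per gene), by material and dose in μg/mouse (horizontal axis). Points are samples, bars are group means, blue is PBS and red is OVA challenge. The lowest group of every gene is PBS-challenged CuO at 40 μg/mouse, and the red samples lie above the blue ones at most doses.

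The levels of all 5 genes spanned a wide range over the 26 groups. On the scale of log2 intensity, adjusted for slide, array position and dye, the distance between the lowest and the highest group mean was 5.64 for Ear11, 5.05 for Ear10, 4.47 for Ear2, 4.27 for Ear1 and 2.89 for Ear6. For each gene the lowest mean was that of the PBS-challenged group on CuO at 40 μg/mouse. The highest was an OVA-challenged group for all 5, namely CuO at 2.5 μg/mouse for Ear1, Ear10 and Ear11, CuO PEG at 2.5 μg/mouse for Ear2 and CuO PEG at 10 μg/mouse for Ear6. Between these ends most neighbouring groups were not resolved, since 21 of the 25 steps in the order of Ear1, 18 for Ear2, 15 for Ear10, 18 for Ear11 and 21 for Ear6 were smaller than the pooled standard deviation between samples.

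In OVA-challenged mice, the comparison with OVA controls asks whether the materials altered these transcripts in an allergic lung. Ear1 and Ear10 fell with all 4 materials at 40 μg/mouse, Ear2 and Ear11 fell with CuO, CuO COOH and CuO NH3, and Ear1, Ear2 and Ear10 also fell with CuO COOH at 10 μg/mouse. Over the 12 exposures, which share the same 8 control samples, 17 of 60 values of the members were called lower and 0 were called higher, where 0.523% of all genes were called lower. A call needed an adjusted p below 0.05 by limma, with Benjamini-Hochberg adjustment over all genes, and a change of more than 0.58 on the log2 scale. The calls were 5 each for Ear1 and Ear10, 4 for Ear2, 3 for Ear11 and 0 for Ear6. With dye, slide and array position as terms in place of dye and array, the count was 29 of 60. The share of all genes called under those terms was not computed, and 0.523% does not apply to that count. At 40 μg/mouse Ear6 was called under other batch terms, lower with CuO and CuO COOH with the array as a random block, with dye, slide and position, and with the replicate number and dye as terms (adjusted p 3.41e-07 to 0.016), and with CuO NH3 under the first and the last of these (adjusted p = 0.0103 and 9.7e-07).

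In OVA-challenged lungs after CuO at 40 μg/mouse, Ear1 was measured at 9.29, 9.59 and 9.41, whereas the 8 OVA controls ran from 12.30 to 12.79 with a median of 12.60. Ear2 stood at 10.98, 11.25 and 11.13, against 14.05 to 14.64 in the controls (median 14.51). All exposed samples of both genes lay below every control sample. Ear10 stood at 10.14, 10.68 and 10.35 against 13.06 to 13.80 (median 13.61), and Ear11 at 11.43, 11.92 and 11.65 against 14.09 to 15.02 (median 14.87), again without overlap. Ear6 was at 7.45, 7.28 and 7.77 against 8.50 to 9.18 (median 8.77).

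In the fit, which compares samples within arrays and so need not return the difference of these means, Ear1 fell by 3.21 on the log2 scale (SE 0.41, limma adjusted p = 0.000126), which is 9.26-fold. Ear2 fell by 3.29 (SE 0.44, adjusted p = 0.000226) and Ear10 fell by 2.84 (SE 0.36, adjusted p = 0.000121). Ear11 fell by 2.06 (SE 0.44, adjusted p = 0.0176), a call that was lost without replicate 1 or replicate 2 of the exposed group. The log2 fold change of Ear6 was -0.91 (SE 0.39) and missed the threshold (adjusted p = 0.297). After this exposure 0.607% of all genes were called lower, against 4 of the 5 members.

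CuO COOH at 40 μg/mouse gave the smallest adjusted p-values among the exposures of OVA-challenged mice for Ear1, Ear2, Ear10 and Ear11. Ear1 was at 10.25, 10.01 and 9.73 and fell by 2.36 (SE 0.29, limma adjusted p = 3.17e-05), and Ear10 was at 11.38, 11.27 and 10.53 and fell by 2.15 (SE 0.25, adjusted p = 1.76e-05). Ear2 fell by 2.44 (SE 0.31, adjusted p = 5.25e-05) and Ear11 fell by 2.02 (SE 0.31, adjusted p = 0.000387). The call of Ear11 was lost without replicate 1 of the exposed group or of the controls. These 2 replicates shared an array, and leaving out either is the same fit. The value of Ear6 was -0.76 (SE 0.28, adjusted p = 0.0947). These 4 calls of 5 stood against 1.58% of all genes called lower. At 10 μg/mouse of the same material Ear1 fell by 1.52 (SE 0.28, adjusted p = 0.0105), Ear2 fell by 1.48 (SE 0.30, adjusted p = 0.0194) and Ear10 fell by 1.21 (SE 0.25, adjusted p = 0.0194), which is 3 of 5 against 0.227% of all genes. Each of these 3 calls was lost without replicate 1 or 3 of the exposed group, with adjusted p between 0.221 and 0.301. OVA control replicate 2 shared an array with that replicate 1, and leaving it out is the same fit. The calls of Ear2 and Ear10 were also lost without OVA control replicate 3 (adjusted p = 0.0652 and 0.0624).

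For CuO NH3 at 40 μg/mouse, the 3 samples were less alike than those of CuO, with Ear1 at 10.99, 9.97 and 9.63 and Ear2 at 12.70, 11.76 and 11.31, yet all lay below the controls. Ear1 fell by 2.31 (SE 0.31, limma adjusted p = 0.000199), Ear2 fell by 2.58 (SE 0.34, adjusted p = 0.000158), Ear10 fell by 2.04 (SE 0.27, adjusted p = 0.000169) and Ear11 fell by 1.83 (SE 0.34, adjusted p = 0.00223). Ear6, at 8.41, 7.90 and 8.69, overlapped the controls and had a value of -0.19 (SE 0.30, adjusted p = 0.796). That was 4 calls of 5 members where 1.92% of all genes were called lower.

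For Ear1, Ear2, Ear10 and Ear11, CuO PEG had the smallest differences of the 4 materials at 40 μg/mouse. Ear1, at 10.80, 11.45 and 10.64, fell by 1.45 (SE 0.34, limma adjusted p = 0.0463) and Ear10, at 11.95, 12.28 and 11.82, fell by 1.25 (SE 0.30, adjusted p = 0.0490), so that 2 of 5 members were called where 0.249% of all genes were. Ear2, at 12.52, 13.48 and 12.44, had a similar value of -1.47 (SE 0.37) but an adjusted p of 0.0625, which ranged from 0.00197 without replicate 2 to 0.4995 without replicate 3 of the exposed group. Ear11 was at -0.90 (SE 0.37, adjusted p = 0.287) and Ear6 at 0.25 (SE 0.33, adjusted p = 0.809). Under the 3 other sets of batch terms Ear2 was called at -1.70 to -1.62 and Ear11 at -1.45 to -1.22, and Ear6 turned to -0.96 (adjusted p = 0.000156) with the replicate number and dye as terms. The calls of Ear1 and Ear10 were lost without replicate 1 or 3 of the exposed group or without any of 7 of the 8 control samples (adjusted p 0.0503 to 0.444), and with the deposited value table, loess normalization or controls of the same slides.

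At 2.5 μg/mouse no member was called with any material, 2 of 20 values being higher and 0 lower at an unadjusted p below 0.05, and the log2 fold changes ran from -0.34 for Ear2 with CuO COOH to 1.02 for Ear11 with CuO. The latter had a standard error of 0.65, the largest among these exposures, and its samples lay within the range of the controls. At 10 μg/mouse, CuO and CuO NH3 gave values for Ear1 of -0.81 (adjusted p = 0.403) and -1.04 (adjusted p = 0.0650), and CuO PEG one of 0.05 (adjusted p = 0.999), none of them past the threshold.

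**Figure D2:**
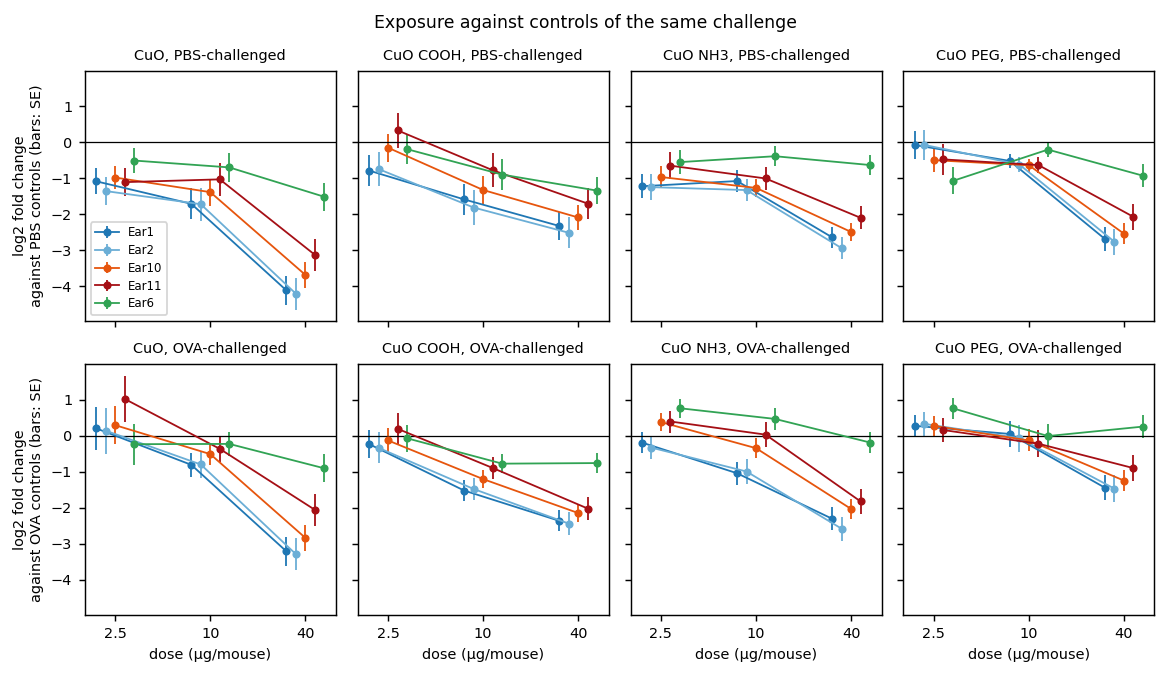
Log2 fold change of each gene against the controls of the same challenge (vertical axes, bars are standard errors) by dose in μg/mouse on a log-spaced axis, one panel per material, PBS-challenged mice above and OVA-challenged mice below. The values of Ear1, Ear2, Ear10 and Ear11 lie lowest at 40 μg/mouse in all 8 panels, from -4.21 for Ear2 with CuO in PBS-challenged mice to -0.90 for Ear11 with CuO PEG in OVA-challenged mice, and Ear6 lies above them at that dose.

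The dose steps within a material show where along the doses the levels dropped. Of 60 values of the members in 12 steps that were tested, 3 were called lower and 0 higher, where 0.0131% of all genes were called lower. With dye, slide and array position as terms 21 values were called, and the share of all genes under those terms was not computed. The 3 calls all belonged to CuO in OVA-challenged lungs, in the step from 10 to 40 μg/mouse, where 0.127% of all genes were called lower. Across that step Ear1 went from 11.75, 11.19 and 11.83 to 9.29, 9.59 and 9.41 and fell by 2.40 (SE 0.42, limma adjusted p = 0.0185). Ear2 fell by 2.49 (SE 0.45, adjusted p = 0.0223) and Ear10 fell by 2.33 (SE 0.36, adjusted p = 0.00507), whereas Ear11 was at -1.69 (SE 0.45, adjusted p = 0.166). All 3 calls were lost without replicate 1 or 2 of the 40 μg/mouse group or replicate 3 of the 10 μg/mouse group. Leaving out that replicate 1 or that replicate 3 gave the same fitted values. The same step gave Ear1 values of -0.84 for CuO COOH (SE 0.39), -1.26 for CuO NH3 (SE 0.40) and -1.49 for CuO PEG (SE 0.45), with adjusted p of 0.480, 0.276 and 0.479.

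In PBS-challenged mice, whose values at 40 μg/mouse were taken to have chosen the genes, the levels are described without a test. With 40 μg/mouse of CuO, Ear1 was at 8.38, 8.33 and 8.53 against 11.70 to 12.20 in the 7 PBS controls (median 12.02), and Ear2 was at 10.14, 10.06 and 10.15 against 13.58 to 14.09 (median 13.97). Ear11 was at 9.27, 9.35 and 9.16 against 12.10 to 12.82 (median 12.46). The exposed samples of these 3 genes lay below every control sample. The fitted log2 fold changes were -4.21 for Ear2 (SE 0.44), -4.12 for Ear1 (SE 0.41), -3.69 for Ear10 (SE 0.36), -3.13 for Ear11 (SE 0.45) and -1.52 for Ear6 (SE 0.39). The corresponding values for CuO COOH, CuO NH3 and CuO PEG were -2.52, -2.94 and -2.77 for Ear2 and -1.35, -0.64 and -0.93 for Ear6. The exposed samples lay wholly below the PBS controls for 5 of 5 members with CuO, CuO COOH and CuO NH3, where 17.3, 17.3 and 18.5% of all genes did so, and for 4 of 5 with CuO PEG, where 9.43% did, and nothing is read from these counts.

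At the lower doses in PBS-challenged mice, the values of Ear1 lay closer to the controls than at 40 μg/mouse with each material. Ear1 was at -1.71 with CuO (SE 0.43), -1.59 with CuO COOH (SE 0.44), -1.08 with CuO NH3 (SE 0.29) and -0.52 with CuO PEG (SE 0.20) at 10 μg/mouse. At 2.5 μg/mouse the same gene was at -1.09 (SE 0.36), -0.79 (SE 0.44), -1.23 (SE 0.34) and -0.08 (SE 0.39), in the same order of materials. With CuO PEG at 2.5 μg/mouse, the samples of Ear1, at 11.78, 11.95 and 11.93, lay inside the range of the controls. Ear6 had its lowest value at that material and dose, -1.08 (SE 0.37), in the fit within arrays, although its samples (7.70, 7.69 and 7.33) lay within the control range of 7.20 to 7.93. The steps from 2.5 to 10 μg/mouse in PBS-challenged mice were tested and none of the members passed, 1 of 20 values being higher and 3 lower at an unadjusted p below 0.05, with values between -1.17 for Ear10 with CuO COOH (SE 0.40, limma adjusted p = 0.482) and 0.87 for Ear6 with CuO PEG (SE 0.40, adjusted p = 0.551).

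The contrast of OVA with PBS challenge showed another ordering of the members. Among control mice, Ear11 was at 14.09 to 15.02 after OVA (median 14.87) and at 12.10 to 12.82 after PBS (median 12.46), and Ear10 at 13.06 to 13.80 (median 13.61) and 11.82 to 12.24 (median 12.00). Ear2 ran from 14.05 to 14.64 after OVA and from 13.58 to 14.09 after PBS, so that its groups overlapped. The fitted differences, given as a description, were 1.82 for Ear11 (SE 0.27), 1.14 for Ear10 (SE 0.21), 0.63 for Ear6 (SE 0.24), 0.34 for Ear1 (SE 0.25) and 0.29 for Ear2 (SE 0.27). For 4 of 5 members all OVA controls lay above all PBS controls, as they did for 9.09% of all genes. The median of the 5 differences, 0.63, became 0.24 without PBS control replicate 2, where Ear1 was at -0.05 and Ear2 at -0.18. Leaving out OVA control replicate 3 gave the same values. These 2 samples shared an array, and with the array as a term either omission takes both out of the comparison. With dye, slide and array position as terms in place of the array, the median was 1.20.

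Within mice given the same material at 2.5 or 10 μg/mouse, Ear11 was higher after OVA in 6 of 8 comparisons, Ear10 in 5, Ear6 in 3, and Ear1 and Ear2 in 1 each. That was 16 of 40 values called higher and 0 called lower, where 1.81% of all genes were called higher. With dye, slide and array position as terms 31 of 40 were called, and the share of all genes under those terms was not computed. Without regard to the test, the OVA-challenged samples lay wholly above the PBS-challenged ones in 37 of 40 cases, against 17% of all genes. These 8 comparisons share no samples with each other.

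With CuO NH3 at 2.5 μg/mouse, all 5 members rose, where 4.77% of all genes did. Ear11 went from 11.66, 12.18 and 11.76 after PBS to 14.41, 15.14 and 14.57 after OVA and rose by 2.87 (SE 0.31, limma adjusted p = 2.6e-06), which is 7.29-fold. Ear10 rose by 2.49 (SE 0.25, adjusted p = 9.47e-07) and Ear6 by 1.95 (SE 0.28, adjusted p = 4.42e-05). Ear1 rose by 1.38 (SE 0.29, adjusted p = 0.00192) and Ear2 by 1.21 (SE 0.31, adjusted p = 0.00937). The calls of Ear1 and Ear2, unlike those of Ear6, Ear10 and Ear11, were lost without replicate 1 of either group, with adjusted p of 0.221 and 0.210. These 2 replicates shared an array, and leaving out either is the same fit. At 10 μg/mouse, where 2.92% of all genes rose, the calls were Ear11 with 2.86 (SE 0.37, adjusted p = 5.04e-05), Ear10 with 2.07 (SE 0.30, adjusted p = 0.000161) and Ear6 with 1.49 (SE 0.33, adjusted p = 0.0071), and Ear1 was at 0.38 (SE 0.34, adjusted p = 0.603). The call of Ear6 was lost without PBS CuO NH3 10 replicate 2 or OVA CuO NH3 10 replicate 3 (adjusted p = 0.182 and 0.155).

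With CuO PEG at 2.5 μg/mouse, 3 of 5 members rose where 4.67% of all genes did. Ear6 went from 7.70, 7.69 and 7.33 to 8.59, 8.72 and 9.06 and rose by 2.47 in the fit (SE 0.40, limma adjusted p = 0.000331), Ear11 rose by 2.45 (SE 0.46, adjusted p = 0.0012) and Ear10 by 1.92 (SE 0.37, adjusted p = 0.0015). The calls of Ear6, Ear10 and Ear11 were all lost without replicate 3 of the PBS-challenged group, with adjusted p of 0.110, 0.296 and 0.172. At 10 μg/mouse, Ear11 rose by 2.23 (SE 0.47, adjusted p = 0.0120) and Ear10 by 1.65 (SE 0.37, adjusted p = 0.0192), against 1.79% of all genes. Both calls were lost without replicate 3 of the OVA-challenged or replicate 4 of the PBS-challenged group, with adjusted p between 0.0503 and 0.324.

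With CuO, the standard errors were larger. Ear11 rose by 3.95 at 2.5 μg/mouse (SE 0.69, limma adjusted p = 0.0460), from 11.49, 11.28 and 12.36 to 14.80, 14.92 and 14.98, being 1 call of 5 where 0.0306% of all genes rose, and the call was lost without replicate 2 of the PBS-challenged group (adjusted p = 0.0882) and under loess normalization (adjusted p = 0.0590). At 10 μg/mouse Ear11 rose by 2.49 (SE 0.51, adjusted p = 0.0347) and Ear10 by 2.02 (SE 0.41, adjusted p = 0.0342), which is 2 of 5 against 0.275% of all genes. Either call was lost without replicate 2 of the PBS-challenged group or without replicate 2 or 3 of the OVA-challenged group, that of Ear10 also without replicate 1 of the latter, and that of Ear11 also without replicate 3 of the former. With CuO COOH no member was called at either dose, with 4 of 10 values higher at an unadjusted p below 0.05, although the values of Ear11 were 1.68 at 2.5 μg/mouse (SE 0.53, adjusted p = 0.398) and 1.70 at 10 μg/mouse (SE 0.50, adjusted p = 0.186). A difference between materials in the response to OVA was not tested.

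**Figure D3:**
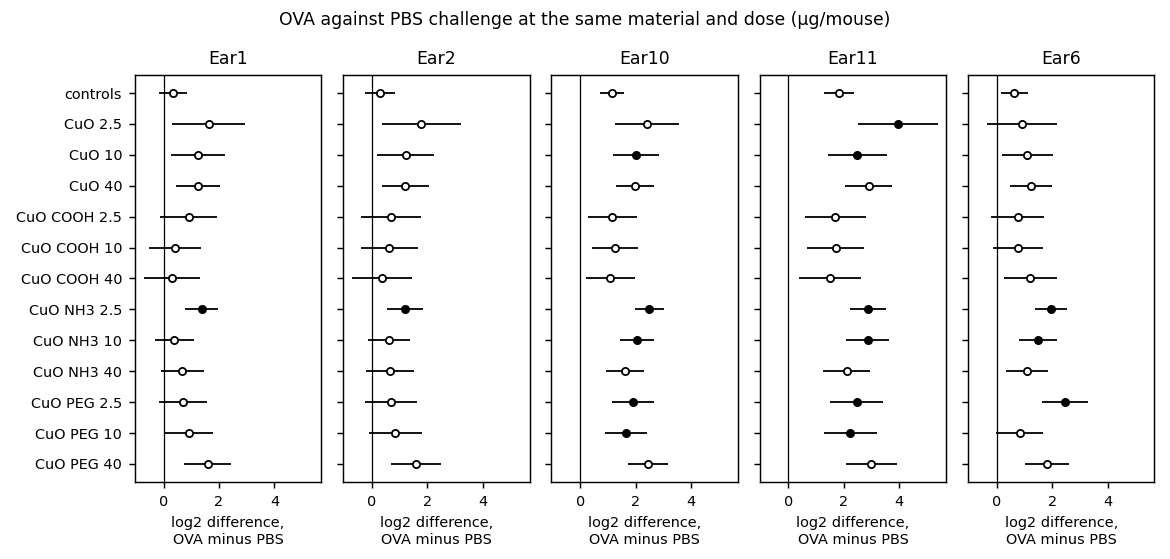
Log2 difference between OVA and PBS challenge (horizontal axes, lines are 95% intervals) for each gene, in controls and in mice given the same material and dose in μg/mouse (vertical axis). Filled points passed the test, and controls and the dose of 40 μg/mouse were not tested. Among the tested comparisons the values of Ear11 lie between 1.68 and 3.95 and those of Ear2 between 0.63 and 1.79.

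The response to 40 μg/mouse in the 2 challenges is set side by side without a test. With CuO PEG, the log2 fold change against controls was less negative in OVA- than in PBS-challenged mice by 1.24 for Ear1 (SE 0.55), 1.30 for Ear2 (SE 0.59), 1.30 for Ear10 (SE 0.47), 1.17 for Ear11 (SE 0.60) and 1.18 for Ear6 (SE 0.52). With CuO the corresponding differences were 0.91, 0.92, 0.85, 1.07 and 0.61, with standard errors of 0.44 to 0.56. With CuO COOH they were -0.04 for Ear1, 0.07 for Ear2, -0.06 for Ear10, -0.32 for Ear11 and 0.59 for Ear6, with standard errors of 0.46 to 0.58. With CuO NH3 they lay between 0.28 for Ear11 and 0.46 for Ear10, with standard errors of 0.40 to 0.50.

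Comparing each surface-modified material with CuO at the same dose asks how the levels differed at equal mass of material. The paper dosed by mass of the whole material and reports less copper in each coated form than in CuO. An effect of the coating and one of the lower copper dose cannot be told apart in these comparisons. In 15 comparisons with a test, 4 of 75 values of the members were called, all of them higher, where 0.0978% of all genes were called higher. All 4 belonged to CuO PEG against CuO in OVA-challenged lungs at 40 μg/mouse, where 0.345% of all genes were called higher. Ear2 was measured at 12.52, 13.48 and 12.44 with CuO PEG and at 10.98, 11.25 and 11.13 with CuO, a difference of 1.69 (SE 0.35, limma adjusted p = 0.0134) or 3.24-fold. Ear10 differed by 1.63 (SE 0.32, adjusted p = 0.0110), Ear11 by 1.58 (SE 0.37, adjusted p = 0.0330) and Ear1 by 1.53 (SE 0.34, adjusted p = 0.0257). Ear6, at 8.43, 8.87 and 8.25 against 7.45, 7.28 and 7.77, did not overlap either but had an adjusted p of 0.158 for a difference of 1.01 (SE 0.32).

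These 4 calls rest on few samples and on the batch terms. They all disappeared without replicate 1 of CuO at 40 μg/mouse, 2 were left without replicate 3 of that group or replicate 1 of the CuO PEG group, and 1 without replicate 2 of the CuO PEG group. None was called with dye and array as terms, whereas 17 of the 75 values were called with the array as a random block, for which the share of all genes was not computed. CuO PEG and CuO were never on the same slide. With slide or array as a fixed term, their difference is reached only through the controls, which lay on both sets of slides.

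For CuO NH3 against CuO in OVA-challenged lungs at 40 μg/mouse, no member passed, and the differences were 1.11 for Ear11 (95% interval 0.43 to 1.80, limma adjusted p = 0.105), 1.03 for Ear10 (0.44 to 1.62, adjusted p = 0.0822) and 0.77 for Ear1 (0.14 to 1.40, adjusted p = 0.258). For CuO COOH the difference of Ear1 was 0.57 (0.00 to 1.13, adjusted p = 0.439) and that of Ear6 was 0.04 (-0.49 to 0.58, adjusted p = 0.968). The intervals of Ear1, Ear10 and Ear11 just given leave room for differences of more than 1 on the log2 scale, and that of Ear6 does not. In PBS-challenged mice at 40 μg/mouse, described without a test, CuO PEG lay above CuO by 1.75 for Ear2 (SE 0.32) and 0.78 for Ear6 (SE 0.30), CuO COOH by 1.26 and 0.49, and CuO NH3 by 1.02 and 0.65.

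At 2.5 and 10 μg/mouse, no member differed from CuO past the threshold with any material in either challenge, and at an unadjusted p below 0.05 there were 12 higher and 2 lower of 60 values. In PBS-challenged mice, the value nearest to it was Ear2 with CuO PEG at 2.5 μg/mouse, at 13.83, 14.07 and 13.88 against 12.66, 12.57 and 13.18 with CuO, a difference of 1.12 (95% interval 0.43 to 1.81, limma adjusted p = 0.0544). At 10 μg/mouse in PBS-challenged mice CuO PEG differed from CuO by 0.81 for Ear2 (0.18 to 1.44, adjusted p = 0.183), whereas CuO COOH differed by -0.50 (-1.07 to 0.06, adjusted p = 1.000).

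**Figure D4:**
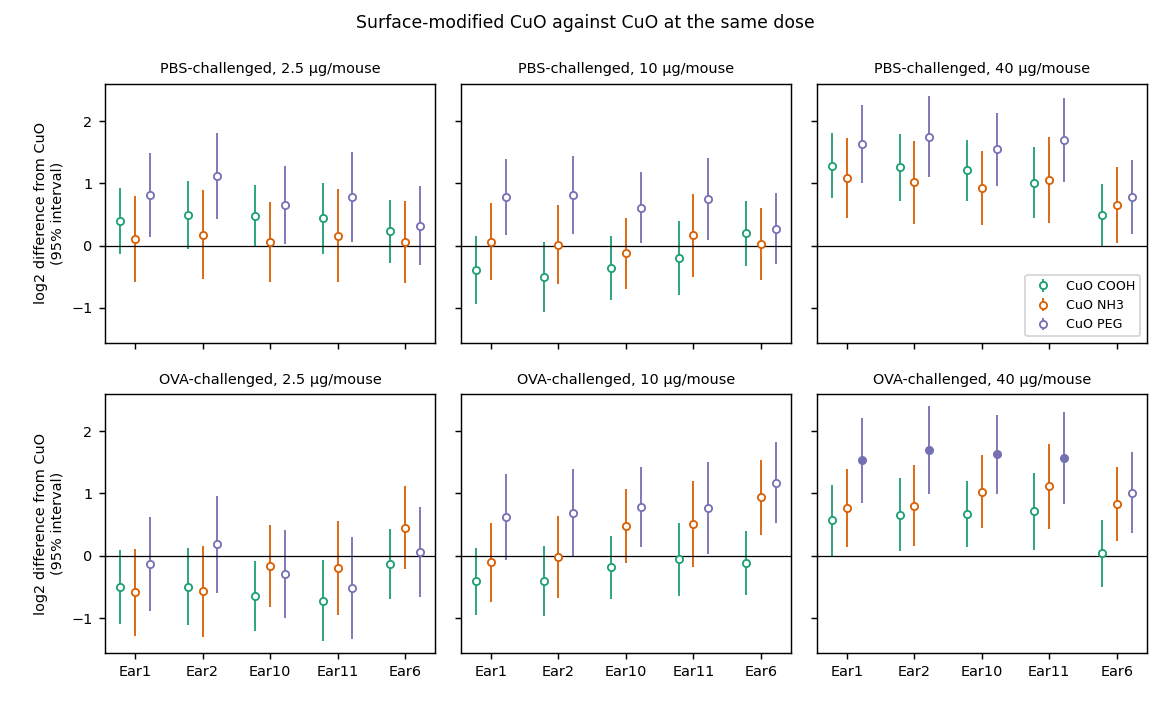
Log2 difference of CuO COOH, CuO NH3 and CuO PEG from CuO at the same dose (vertical axes, lines are 95% intervals) for each gene, by dose and challenge. Filled points passed the test, and the panel of PBS-challenged mice at 40 μg/mouse was not tested. The filled points are the 4 values of CuO PEG at 40 μg/mouse after OVA, between 1.53 and 1.69.

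Ear6 was read by 2 probes of low intensity, and these did not give the same answer everywhere. Over the 26 group means the 2 probes had a Pearson correlation of 0.892. In OVA-challenged lungs after CuO COOH at 40 μg/mouse, probe A_51_P379293 fell by 1.19 (SE 0.28, limma adjusted p = 0.0124), whereas probe A_55_P2004375 was at -0.34 (SE 0.29, adjusted p = 0.591). With CuO at the same dose, neither probe passed the test (adjusted p = 0.0676 and 0.908). In the contrast of OVA with PBS challenge at 2.5 μg/mouse of CuO NH3, both probes rose, by 1.93 (SE 0.28, adjusted p = 4.08e-05) and 1.96 (SE 0.30, adjusted p = 7.19e-05). Before slide was removed, Ear6 also differed between slide sets among controls, with PBS controls at 7.92 to 8.07 on slides 1 to 3 and at 6.72 to 7.86 on slides 4 to 6, and OVA controls at 8.91 to 9.28 and 8.12 to 8.79. The mean of the OVA controls of Ear2 was 14.46 on the first set of slides and 14.45 on the second.

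The 5 genes fell into an order of likeness. Over the 26 group means, which share slides and normalization and are given as a description, Pearson's r was 0.997 between Ear1 and Ear2, 0.978 between Ear10 and Ear11, 0.951 between Ear6 and Ear11, and 0.931 between Ear1 and Ear10. The lowest values were those of Ear6 with Ear1 (0.720) and Ear2 (0.717). Ear2 and Ear11, with 0.838 over all groups, had 0.993 within the 13 PBS-challenged groups and 0.966 within the 13 OVA-challenged ones. Ear6 and Ear1 had 0.913 and 0.780 within the same sets.

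Among the 15424 genes well above background in at least 45 of the 89 samples, those whose group means correlated most highly with the members differed from one member to the next. For Ear1 and Ear2 they included Cd2, an adhesion molecule of T and NK cells (r = 0.972 for both), and the guanylate-binding protein Gbp4. For Ear10 they were Pparg (r = 0.966), a nuclear receptor needed by alveolar macrophages, Wdfy4 and Serpinb1a. For Ear11 they were Mag (r = 0.966), the iron regulator Hfe (r = 0.965) and the phosphofructokinase Pfkp, and for Ear6 they were Hfe (r = 0.965), the cationic amino acid transporter Slc7a2, and Stac2. The most negative were Fbp2 for Ear1 (r = -0.958) and Ear2 (r = -0.963), Tuft1 for Ear10 (r = -0.944), the keratinocyte factor Kdf1 for Ear11 (r = -0.947) and Slc18b1 for Ear6 (r = -0.959). The water channel Aqp5 of type 1 alveolar cells was among the 3 lowest for Ear11.

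Markers of the cells known to carry these transcripts moved with them to different degrees. The mean level of 18 alveolar macrophage markers correlated over the 26 group means with Ear10 at 0.944, Ear1 at 0.940, Ear2 at 0.936, Ear11 at 0.886 and Ear6 at 0.778. For 10 eosinophil markers the order was Ear6 0.918, Ear11 0.863, Ear10 0.752, Ear1 0.475 and Ear2 0.467, and within the 13 PBS-challenged groups no member exceeded 0.593. For 12 neutrophil markers r was -0.503 with Ear1 and Ear2, -0.217 with Ear10, -0.043 with Ear11 and 0.140 with Ear6, but within the PBS-challenged groups it was -0.857 to -0.805 for all 5. Within the OVA-challenged groups it was -0.801 with Ear1 and -0.322 with Ear6. Points share slides, normalization and control groups, and Siglecf counts as a marker of both alveolar macrophages and eosinophils.

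**Figure D5:**
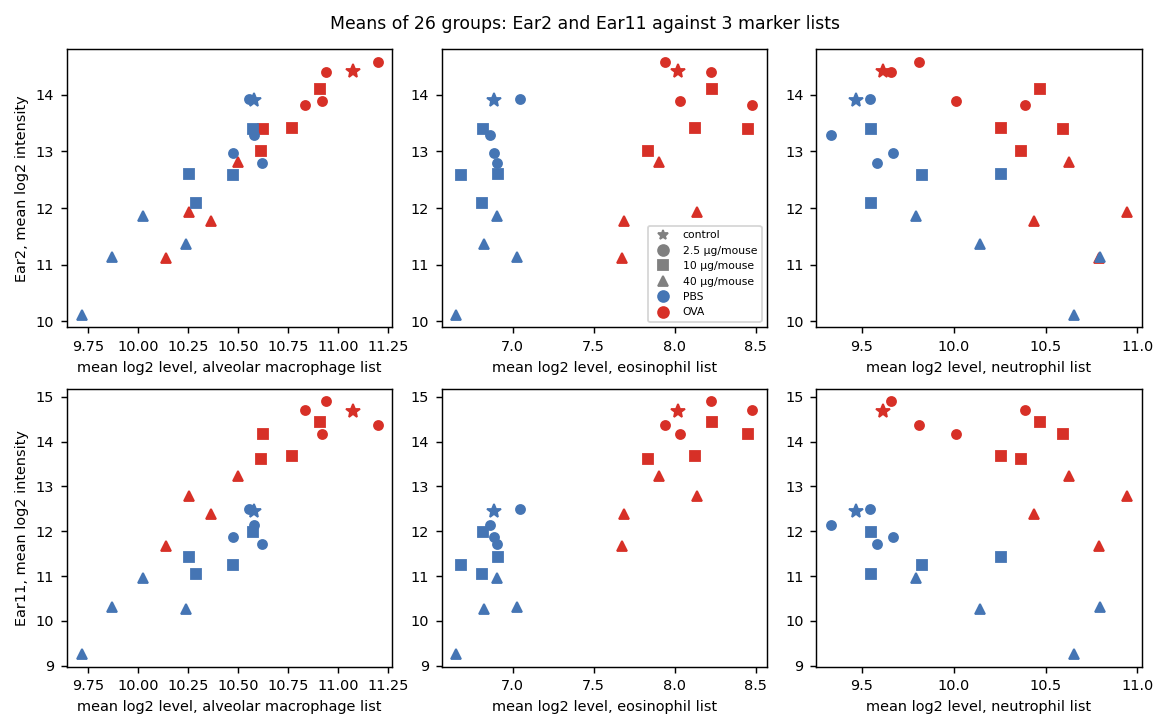
Group means of Ear2 (upper row) and Ear11 (lower row) on the vertical axes against the mean log2 level of the alveolar macrophage, eosinophil and neutrophil lists on the horizontal axes, over 26 groups. Blue is PBS and red is OVA challenge, and the shape of a point gives the dose in μg/mouse. Ear2 follows the alveolar macrophage list (r = 0.936) more closely than the eosinophil list (r = 0.467), while for Ear11 the values are 0.886 and 0.863.

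In OVA-challenged lungs at 40 μg/mouse, where Ear1 and Ear10 fell with all 4 materials, the mean level of the alveolar macrophage list ran from 10.109 to 10.153 with CuO, 10.259 to 10.444 with CuO COOH, 10.020 to 10.454 with CuO NH3 and 10.385 to 10.566 with CuO PEG, against 10.992 to 11.184 in OVA controls. Of its 18 markers 4 were called lower with CuO, 6 with CuO COOH, 11 with CuO NH3 and 0 with CuO PEG, and 1 each was called higher with CuO and CuO COOH, namely Krt19, a keratin that epithelial cells also express. Of all genes 0.607, 1.58, 1.92 and 0.249% were called lower, in the same order of materials. The medians of the list were -0.70, -0.52, -0.81 and -0.29, beside medians over all genes between -0.01 and 0.02. Itgax, the integrin CD11c, had log2 fold changes of -1.15 with CuO, -1.27 with CuO COOH and -1.30 with CuO NH3, all called (limma adjusted p = 0.0186, 0.000131 and 0.000416). Pparg fell by 0.86 with CuO (adjusted p = 0.0264) and fell by 0.85 with CuO NH3 (adjusted p = 0.00174). The scavenger receptor Marco fell by 2.33 with CuO NH3 (adjusted p = 0.0170) and the fatty acid binding protein Fabp1 fell by 2.46 with CuO (adjusted p = 0.0448). The part of these cells in the falls of the members was not tested.

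The eosinophil list gave fewer calls in the same comparisons. Its mean level was 7.602 to 7.717 with CuO and 7.427 to 7.933 with CuO COOH, against 7.757 to 8.421 in OVA controls, and 7.962 to 8.289 with CuO NH3 and 7.788 to 8.031 with CuO PEG. Of 10 markers, Siglecf alone was called lower, with CuO COOH, and 0 were called higher. Epx, the eosinophil peroxidase, had log2 fold changes of 0.92 with CuO, 0.44 with CuO COOH, 0.83 with CuO NH3 and 1.12 with CuO PEG, and Prg2, the major basic protein of eosinophil granules, had 0.65, 0.32, 0.54 and 0.64, none of which passed the test. At the lower doses of CuO NH3, where no member was called against OVA controls, Epx rose by 1.71 at 2.5 μg/mouse (limma adjusted p = 0.00134) and by 2.39 at 10 μg/mouse (adjusted p = 4.65e-05). Of all genes, 0.489% were called higher at the first of these doses and 1.38% at the second. Epx is given as an example, and over all 12 exposures 7 of 120 values of the eosinophil list were called higher and 1 lower. Epx was well above background in 43 of 89 samples, Prg2 in 70 and Prg3 in 12, and values below background are poorly resolved.

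Neutrophil markers were higher at 40 μg/mouse. The list's mean level was 9.436 to 9.862 in OVA controls and 10.647 to 11.056 with CuO, 10.328 to 10.642 with CuO COOH, 10.501 to 11.295 with CuO NH3 and 10.456 to 10.784 with CuO PEG. Of 12 markers 3, 3, 7 and 1 were called higher in that order of materials, the collagenase Mmp8 with all 4, and 0 were called lower. Of all genes, 0.969% were called higher with CuO, 2.23% with CuO COOH and 2.06% with CuO NH3. The share was at most 2.23% in any exposure of OVA-challenged mice. Their part in the falls of the members was not tested.

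With CuO PEG against CuO after OVA at 40 μg/mouse, the comparison with 4 calls among the members, 2 alveolar macrophage markers were called higher, Itgax by 0.82 (limma adjusted p = 0.0307) and Pparg by 0.59 (adjusted p = 0.0369), and 0 eosinophil markers were. Of all genes, 0.345% were called higher there. Ccl5, a chemokine that draws eosinophils and T cells, was higher by 1.57 (adjusted p = 0.0209) and the GM-CSF receptor chain Csf2ra by 0.64 (adjusted p = 0.0392). Both are examples. Over the 15 material comparisons, genes for eosinophil growth and recruiting signals had 3 values called higher and 3 lower of 135. Genes around GM-CSF signalling had 2 higher and 2 lower of 165. The median of the alveolar macrophage list was 0.29, beside -0.01 over all genes, and its part in these 4 calls was not tested.

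When OVA was compared with PBS challenge at 2.5 and 10 μg/mouse, 28 of 80 values of the eosinophil markers were called higher and 0 lower, and 39 of 80 of the alternatively activated macrophage genes were higher and 0 lower. Of all genes, 1.81% were called higher over these 8 comparisons, and 4.77% with CuO NH3 at 2.5 μg/mouse. With CuO NH3 at 2.5 μg/mouse, where all 5 members rose, 8 of 10 eosinophil markers rose, among them Prg2 by 2.74 (limma adjusted p = 1.06e-07), Cebpe, a transcription factor of granulocyte maturation, by 2.93 (adjusted p = 4.23e-06) and Epx by 2.32 (adjusted p = 1.24e-06). In the same comparison 8 of 10 alternatively activated macrophage genes rose, among them Arg1 by 5.30 (adjusted p = 6.18e-08) and Chil4 by 5.08 (adjusted p = 1.92e-08). Of 9 genes for eosinophil growth and recruiting signals 6 rose and 1 fell, the chemokine Ccl8 rising by 4.92 (adjusted p = 3.98e-06) and Ccl11, which encodes eotaxin, by 2.04 (adjusted p = 8.73e-06), while Csf2, which encodes GM-CSF, fell by 1.26 (adjusted p = 9.67e-05). Of 11 genes around GM-CSF signalling and alveolar macrophage identity 5 rose, among them Csf2rb2 by 1.44 (adjusted p = 1.26e-05), and Csf2 was the single one that fell. Their part in the rises of the members was not tested.

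Of a list of 20 genes, made up of further members of the RNase A superfamily and the cytosolic inhibitor Rnh1, 13 were measured, and none was called by limma in either direction in the 12 exposures of OVA-challenged mice, the 8 comparisons of challenge, the 12 dose steps or the 15 comparisons of materials tested. At an unadjusted p below 0.05, 25 of these 611 values were higher and 20 lower. Rnase4, Rnase6 and Ang, which encodes angiogenin, were well above background in 89 of 89 samples. Ear5, now Rnase2b, which lies in the second cluster beside Ear11, was not well above background in any sample. Ear14 was not among the genes measured here.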

How the data were processed

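Lung RNA was measured on 2-colour Agilent arrays, with a different sample in each channel. The intensities used were the deposited median foreground values of each channel, which the authors extracted with Feature Extraction (12.0.2.2 in the file headers). The authors also deposited a log2 value table, for which the methods give log2 transformation, quantile normalization and ComBat correction for labelling and array. It served as an alternative. No column of the authors' own comparisons was used.

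From 62976 spots per array, 3671 control spots and outlier spots (0.16%) were left out, log2 intensities were quantile normalized over 89 samples without background subtraction, and 56605 probes were averaged to 22911 genes by RefSeq accession. The array annotation gave 32994 probes a gene, and the other 23611 stayed unnamed. Models were fitted with limma 3.58.1 in R 4.3.3 over all 26 groups, with dye and array as fixed terms (17 residual degrees of freedom), or with dye, slide and position for materials against CuO (50), and Benjamini-Hochberg adjustment over all genes. Genes were called where the adjusted p was below 0.05 and the change exceeded 0.58 on the log2 scale in either direction, that is 1.5-fold. Printed sample values had slide, position and dye removed with limma's removeBatchEffect. The p-values measure the spread between pools of RNA. With 3 to 8 samples a group, the number of samples limits precision.

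The members and all gene lists (114 genes, 107 of them measured) were chosen with earlier results of these data known. Members and their probes were named throughout, list genes where called or where they mark eosinophils, alveolar macrophages or neutrophils, and for likeness the 3 highest and 3 lowest correlations per member were ranked, of which examples are given. The fits were tested on simulated data. Alternatives changed the background correction (normexp, offset 50), the normalization (loess), a filter on dim probes, the batch terms, the probe of a gene, the values, the controls and the samples.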

Additional observations from a re-analysis of the deposited data

Results flagged for a closer look

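Ear11 in PBS-challenged mice on CuO NH3 at 10 μg/mouse had 1 sample apart from the rest. Replicate 4 was at 11.65 on the log2 scale, after removal of slide, array position and dye, and the other 3 samples were at 11.32 to 11.35, so that its gap to the nearest of them was 0.925 of the range of the group. Of 20 pairs of a member and a group of 4 or more samples examined this was the single one found, and chance gives about 1 in 20.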

How the results depend on the processing

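The batch terms moved the counts of calls most, and the cause was not tested. With the array as a random block, with dye, slide and position, and with the replicate block (replicate number and dye), the 17 calls in OVA-challenged mice against controls became 29, 29 and 33, the 16 of OVA against PBS challenge became 33, 31 and 36, and the 3 of the dose steps became 19, 21 and 23. The 4 calls of materials against CuO became 17 with the random block, 0 with dye and hybridisation, and 18 with the replicate block. The shares of all genes called under these settings were not computed, so the counts cannot be set against them. The median difference of the members between OVA and PBS controls, 0.63, became 1.18, 1.20 and 1.27 under the 3 settings first named. Ear6 with CuO PEG at 40 μg/mouse in OVA-challenged mice turned from 0.25 to -0.96 with the replicate block, which holds no slide term. Under background correction, loess, the dim filter, the brightest probe, the deposited values and same-slide controls, where run, the counts stayed within 1.5 times.

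With single samples left out, the counts ran from 13 to 19 (exposure), 0 to 5 (materials), 13 to 17 (challenge) and 0 to 4 (dose steps). With the array as a term, leaving out a sample also takes its partner on the same array out of the comparison. Omissions of either sample of an array are then the same fit. The median between controls ran from 0.24 to 0.85. Without PBS control replicate 2 or its array partner, OVA control replicate 3, the differences of Ear1 and Ear2 were -0.05 and -0.18. The median of PBS-challenged exposures, -1.10, ran from -1.456 to -1.004. No dose step was called without OVA CuO 40 replicate 1 or 2 or OVA CuO 10 replicate 3, and no material without OVA CuO 40 replicate 1.

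The labels do not tie samples of 1 replicate number together, so no paired result is given. Of 219 same-numbered pairs 101 had deviations correlated above 0.1 (median 0.085), with every pair above it in 9 of 71 comparisons. Of 89 samples, 60 correlated best with a sample of their own number. Dye but not slide was removed for this check, and in most exposed groups the replicate number followed the slide. Likeness by number and by slide can therefore not be told apart here.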
